A study of Mus musculus with 4 samples.

Results

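The genes described here are the chain genes of the mouse major histocompatibility complex (MHC) class II, H2-Aa, H2-Ab1 and H2-Eb1, the genes of their chaperones, Cd74, H2-DMa, H2-DMb1, H2-Oa and H2-Ob, and Ciita, the gene of the class II transactivator. They were taken by name: every non-control probe that the array design assigns to one of these genes was kept. This gave 16 probes in 25 spots for the 9 genes, of 41174 probes in 43379 spots for 19822 named genes on each array. H2-Ab1 had 4 probes, H2-Aa, H2-DMb1, H2-Oa and H2-Ob had a pair each, and H2-Eb1, H2-DMa, Cd74 and Ciita were each read by a single probe.

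RNA of 4 cell populations grown from BALB/C mouse bone marrow was hybridised to one-colour Agilent arrays, 1 array per population. The antibody-treated sDCs were lineage-depleted marrow progenitors seeded on a monolayer of Sca-1+CD117-Lin- mesenchymal stem cells (MSCs), given lipopolysaccharide (LPS, a bacterial product that activates dendritic cells) on day 4, formed by day 9, and kept with a neutralizing antibody against the cytokine IL-10 at 10 µg/mL, renewed every other day. The sDCs were made in the same way without the antibody. The maDCs, or mature dendritic cells, were imDCs kept for 4 to 5 further days with LPS at 10 ng/mL. The imDCs, or immature dendritic cells, were loosely adherent clusters from marrow cells held for 4 days with GM-CSF at 10 ng/mL and IL-4 at 5 ng/mL, taken on magnetic beads for CD11c, an integrin of most dendritic cells. The labels record these growth factors for imDCs and maDCs and not for the sDC cultures. They record neither the LPS dose of the sDC cultures nor how sDCs were parted from the stroma. With 1 array per population no spread between cultures can be estimated, so no test, p-value or standard error is given, and every difference is one between single arrays.

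MHC class II molecules are pairs of an alpha and a beta chain that present peptides from endosomes to CD4+ T cells. H2-Aa and H2-Ab1 encode the chains of I-A, and H2-Ea and H2-Eb1 those of I-E. The invariant chain, encoded by Cd74, escorts new pairs to the endosome and blocks their groove; H2-DM, built from the products of H2-DMa and H2-DMb1, exchanges the last fragment of the invariant chain for other peptides, and H2-DO, built from those of H2-Oa and H2-Ob, inhibits H2-DM. Ciita binds no DNA itself: it is recruited by factors already seated on class II promoters, where the RFX complex holds the X box and NF-Y the Y box, an inverted CCAAT. Dendritic cells are known for high class II expression and for moving class II from endosomes to the surface as they mature.

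The promoter stretches below are shown because these 5 members hold the core letters of the promoter layout through which Ciita is known to act, so that they can be read beside the values. They were read from RefSeq windows of the build GRCm38.p6 on chromosome 17, 5′ to 3′ on the strand of the gene, with capitals on GNAAC and GATTGG, which hold core letters of the X and the Y box.
H2-Aa, minus strand, chr17:34287857-34287914: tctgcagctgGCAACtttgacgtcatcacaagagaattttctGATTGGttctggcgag
H2-Eb1, plus strand, chr17:34305766-34305822: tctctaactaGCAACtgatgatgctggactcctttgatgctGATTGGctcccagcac
H2-DMb1, plus strand, chr17:34153087-34153144: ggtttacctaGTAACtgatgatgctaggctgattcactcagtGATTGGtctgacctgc
H2-Oa, plus strand, chr17:34092293-34092350: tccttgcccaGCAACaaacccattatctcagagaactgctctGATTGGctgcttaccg
H2-Ob, plus strand, chr17:34238808-34238862: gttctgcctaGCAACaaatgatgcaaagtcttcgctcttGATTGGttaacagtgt

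GNAAC followed after 24 to 27 bases by GATTGG, on either strand, was found in the 250 bases before the start of 5 of the 6 genes that could be looked up. GATTGG ended 43 bases before the start in H2-Aa, 54 in H2-Eb1, 56 in H2-DMb1, 38 in H2-Oa and 52 in H2-Ob. The same spacing stood in 61 of 32851 windows of that length over 27025 genes, or 0.186%, while GNAAC alone stood in 79.6% and GATTGG alone in 14.6%. H2-DMa holds both pieces in its windows, but not at this spacing. The spacing was chosen after these sequences had been read, and GNAAC and GATTGG were not among the letters planned. The counts therefore describe the windows and are no test, and a match of letters is not a binding site. The planned letters were ATTGG, in 6 of the 6 genes and 33.85% of windows, CTGATTGG (3 and 3.83%), GCAAC (5 and 29.9%) and TGACG (1 and 17.8%). H2-Ab1, Cd74 and Ciita had no entry among these windows.

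Levels are given as log2 of a probe's signal over the 75th percentile of all non-control spots on its array, so that 0 is that percentile, and a probe at or near background is called not well above background where the scanner software marked it so. Between 61.2% and 69.7% of spots were well above background, no spot was saturated, and the number of arrays limits the precision. The spot SD of the H2-Ab1 probe printed 10 times was 0.031, 0.030, 0.017 and 0.036 log2 units on the antibody-treated sDC, sDC, maDC and imDC arrays, which covers spotting and scanning only. The imDC array lay on a slide of its own and the other 3 arrays shared a slide, so slide and population cannot be told apart in comparisons with imDCs.

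The I-A alpha chain gene H2-Aa was nearly level between maDCs and imDCs and far lower on both sDC arrays. Its brighter probe (mm9 chromosome 17, 34420627 to 34420686, starting at base 454 of the transcript) had -3.16 in antibody-treated sDCs, -2.94 in sDCs, 3.86 in maDCs and 4.05 in imDCs. The other probe (34421285 to 34421344, base 227) was not well above background on either sDC array and had 0.85 in maDCs and 0.88 in imDCs. Both probes therefore put H2-Aa low in the cultures on stroma and high in the GM-CSF cultures. At the brighter probe it was 127-fold lower in sDCs than in imDCs and 111-fold lower than in maDCs, and at the other at least 119-fold and at least 117-fold lower. These arrays read RNA of whole populations, so fewer cells expressing a gene and less of its RNA per cell cannot be told apart.

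The I-A beta chain gene H2-Ab1 followed the same order, with a smaller distance. Its brightest probe (34406059 to 34406118, base 875) had 2.04 in antibody-treated sDCs, 2.23 in sDCs, 6.23 in maDCs and 6.36 in imDCs. The probe printed 10 times (34404388 to 34404447, base 546) had -0.83 in antibody-treated sDCs, -0.72 in sDCs, 3.52 in maDCs and 4.31 in imDCs. The brightest probe stayed above the 75th percentile of the array on both sDC arrays. At this probe H2-Ab1 was 17.4-fold lower in sDCs than in imDCs and 16.0-fold lower than in maDCs.

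The 4 H2-Ab1 probes are a check within 1 gene, and the pair nearest the 5′ end also reads slightly different letters. They are shown with capitals where the overlap of that pair differs.
A_52_P570717: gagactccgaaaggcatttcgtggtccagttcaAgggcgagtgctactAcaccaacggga
A_51_P215242: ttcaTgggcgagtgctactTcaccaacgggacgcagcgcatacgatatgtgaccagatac

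These probes overlap by 31 bases and differ at 2 of them, A5T and A20T, written as the base of A_52_P570717, the position counted from 1 at the 5′ end of the overlap, and the base of A_51_P215242. The first was designed to the cDNA BC010322 and has no mm9 position in the files; the second lies at 34401723 to 34401782 and was designed to NM_207105. Class II chain genes differ between mouse strains, and which letters the BALB/C transcripts carry was not tested. A_52_P570717 had -2.45, -2.40, 1.92 and 3.0 in antibody-treated sDCs, sDCs, maDCs and imDCs. A_51_P215242 had -2.75, -2.49, 1.88 and 2.99 on the same arrays. The differences of the pair lay close together: sDC minus imDC was -5.39 and -5.48, sDC minus maDC -4.32 and -4.38, and maDC minus imDC -1.07 and -1.10.

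The I-E beta chain gene H2-Eb1 behaved like H2-Aa. Its probe had -2.03 in antibody-treated sDCs, -1.94 in sDCs, 4.41 in maDCs and 4.43 in imDCs, which is 82.9-fold lower in sDCs than in imDCs and 81.8-fold lower than in maDCs. The identity of the probe carries a doubt that its sequence lets a reader follow up: the array design names it H2-Eb1, while the description of its accession, X52641, calls the transcript an I-A beta mRNA of the NOD strain.
A_51_P393226: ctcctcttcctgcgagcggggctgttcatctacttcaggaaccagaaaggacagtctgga

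In mm9 the probe lies on chromosome 17 at 34452050 to 34452511, a span of 462 bases for 60 probe bases, between the probes of H2-Aa and H2-Eb2. Its value is therefore given under the name of the array design.

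The invariant chain gene Cd74 was likewise far lower on both sDC arrays. Its probe (mm9 chromosome 18, 60972075 to 60972132) had 1.49 in antibody-treated sDCs, 1.51 in sDCs, 7.79 in maDCs and 7.26 in imDCs. The sDC arrays lay apart from the other pair by a wide margin, 54.1-fold below imDCs and 77.9-fold below maDCs, although Cd74 remained above the 75th percentile of all spots there.

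**Figure D1:**
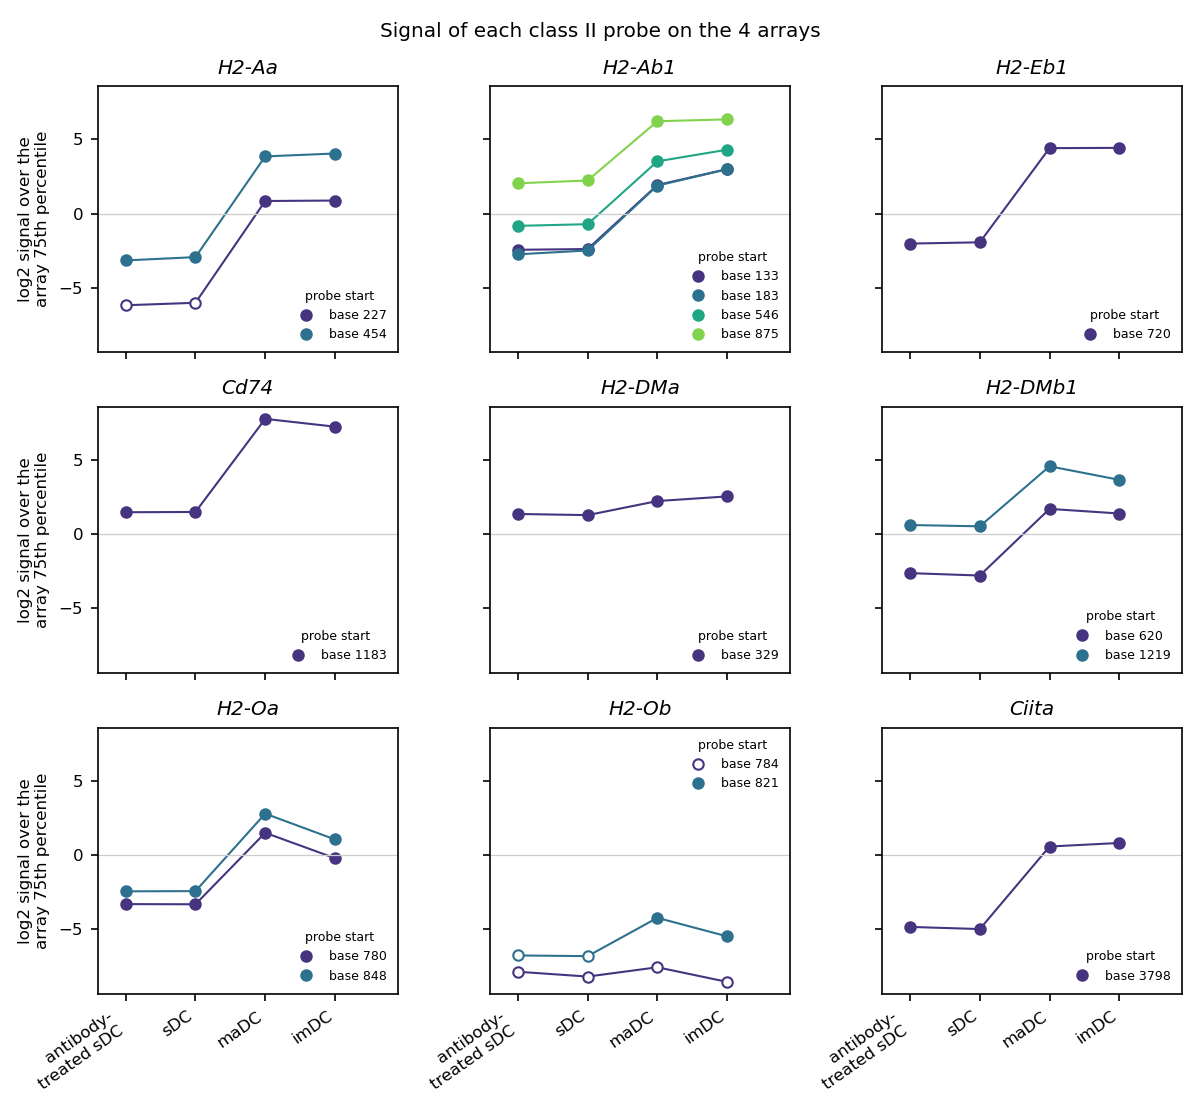
Level of each probe of the 9 genes on the 4 arrays, on the y axis in log2 units over the array's 75th percentile (0); 1 line per probe, coloured by the base of its accession where it starts, and open circles where the probe was not well above background. In each panel except H2-DMa and H2-Ob both sDC points lie far below the maDC and imDC points; lines join points of a probe and stand for no order in time, and levels are not comparable between probes.

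H2-DMa stood apart from the other chaperone genes. Its probe (chromosome 17, 34274300 to 34274863) had 1.37 in antibody-treated sDCs, 1.30 in sDCs, 2.24 in maDCs and 2.56 in imDCs, so that all 4 arrays lay within 1.26 log2 units. H2-DMa was 2.40-fold lower in sDCs than in imDCs and 1.93-fold lower than in maDCs. Its partner H2-DMb1 was lower by far more: the brighter probe (34297109 to 34297168, base 1219) had 0.63 in antibody-treated sDCs, 0.54 in sDCs, 4.59 in maDCs and 3.68 in imDCs. The other H2-DMb1 probe (base 620) had -2.62, -2.78, 1.72 and 1.40 on the same arrays. In sDCs the brighter one was 8.80-fold below imDCs and 16.6-fold below maDCs, and the other 18.2-fold and 22.6-fold below. The subunits of H2-DM differed in size of the difference by more than the pooled SD between probes of a gene. That SD was 0.596 for sDC minus imDC (5 degrees of freedom, 3 genes) and 0.230 for sDC minus maDC. H2-DMa has a single probe and so no such spread of its own, and the H2-DMb1 probes lay 1.05 apart for sDC minus imDC. The comparison is therefore no test.

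Of the 9 genes, the 2 H2-DO genes were at least 2-fold higher in maDCs than in imDCs, a share close to the 21.6% over all genes with a value. H2-Oa had -2.45 in antibody-treated sDCs, -2.43 in sDCs, 2.80 in maDCs and 1.05 in imDCs at its brighter probe (34232033 to 34232092, base 848). Its other probe (base 780) gave -3.31, -3.32, 1.5 and -0.21 on the same arrays. Both probes placed maDCs first, imDCs second and the sDC pair well below: at the brighter one H2-Oa was 3.34-fold higher in maDCs than in imDCs, 11.2-fold lower in sDCs than in imDCs and 37.5-fold lower than in maDCs. H2-Ob was dim. Its probe at 34380833 to 34381064 was not well above background on the antibody-treated sDC and sDC arrays, with -4.24 in maDCs and -5.49 in imDCs. This is 2.38-fold higher in maDCs than in imDCs, at least 3.48-fold lower in sDCs than in maDCs and at least 1.47-fold lower than in imDCs. With normexp background correction, quantile normalization or the authors' deposited table, H2-Ob was less than 2-fold higher in maDCs than in imDCs (0.86, 0.81 and 0.77 log2 units). The second H2-Ob probe, designed to M19423, was not well above background on any of the 4 arrays.

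Ciita itself was low in sDCs. Its single probe (chromosome 16, 10526303 to 10526362, base 3798) had -4.85 in antibody-treated sDCs, -5.00 in sDCs, 0.58 in maDCs and 0.82 in imDCs. The processed intensity behind these levels was 46.1, 41.1, 2224 and 3511, so the sDC values were faint but marked well above background. Ciita was 56.1-fold lower in sDCs than in imDCs and 47.6-fold lower than in maDCs, or -5.81 and -5.57 on the log2 scale, which became -4.49 and -4.20 with normexp correction. The probe lies far into the transcript, and the array design thus does not tell apart the Ciita transcripts that start from different promoters.

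The comparison of maDCs with imDCs asks how LPS maturation goes with class II transcripts, with the longer culture and the slide changing together with LPS. Of the 9 genes, 2 were at least 2-fold higher in maDCs, H2-Oa (1.74) and H2-Ob (1.25), where 21.6% of 14108 genes with a value were. None was at least 2-fold lower at its brightest probe, where 10.8% of genes were. The median of the 9 differences was -0.02, against 0.18 over all genes. The 3 chain genes lay at -0.19 (H2-Aa), -0.13 (H2-Ab1) and -0.02 (H2-Eb1), with H2-Eb1 at 0.11 after normexp background correction, so its direction is not settled. In the same order they lay at -0.41, -0.45 and -0.30 with quantile normalization, and at -0.45, -0.46 and -0.33 in the authors' deposited table. The other H2-Ab1 probes lay at -1.07, -1.10 and -0.79. Cd74 lay at 0.53, H2-DMb1 at 0.92, H2-DMa at -0.31 and Ciita at -0.24. Scaling also moved H2-Ob below 2-fold, to 0.86 with normexp, 0.81 with quantile normalization and 0.77 in the authors' deposited table. Quantile normalization also brought the all-gene median to 0.02.

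The comparison of sDCs with imDCs puts cells formed on stroma and given LPS against the immature population. Of the 9 genes, 8 were at least 2-fold lower in sDCs, where 16.1% of 15037 genes were, and 0 were at least 2-fold higher, where 25.4% were. The remaining gene was H2-Ob, with a bound of -0.55. The median was -4.12 or lower, since the H2-Ob value is a bound, against 0.21 over all genes, and the 5th percentile over all genes was -2.47. H2-Aa, H2-Eb1, Ciita, Cd74, H2-Ab1, H2-Oa and H2-DMb1 lay below that percentile, in that order from -6.99 to -3.14, and H2-DMa at -1.26 did not.

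The comparison of sDCs with maDCs sets apart 2 populations that both had LPS, and whose arrays shared a slide. Here too 8 of the 9 genes were at least 2-fold lower in sDCs, where 16.8% of 14601 genes were, and 0 were higher, where 14.2% were. The exception was H2-DMa at -0.95, and H2-Ob was counted by its bound of -1.80, which was -0.64 with normexp correction. The median was -5.23 or lower, against 0.03 over all genes. This comparison shares the sDC array with the one above and the maDC array with the first, so the 3 are not independent. For H2-Oa, highest in maDCs, the sDC minus maDC difference was -5.23 and the sDC minus imDC difference -3.49.

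The comparison of antibody-treated sDCs with sDCs asks whether neutralizing IL-10 goes with other class II levels. None of the 8 genes with a value was 2-fold higher or lower, against 0.862% of 14393 genes past that size upwards and 1.26% downwards. The differences ran from -0.22 (H2-Aa) to 0.14 (Ciita), with a median of -0.02 against -0.03 over all genes. H2-Ab1 lay at -0.19, H2-Eb1 at -0.09, Cd74 at -0.02, H2-DMa at 0.08, H2-DMb1 at 0.09 and H2-Oa at -0.01, with H2-Oa at 0.01 after normexp correction. All 8 values fell within the 5th to 95th percentile of all genes, which was -0.62 to 0.34. With 1 array a side, a difference between cultures of this size cannot be told from none. H2-Ob was not well above background on either array and gave no value.

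**Figure D2:**
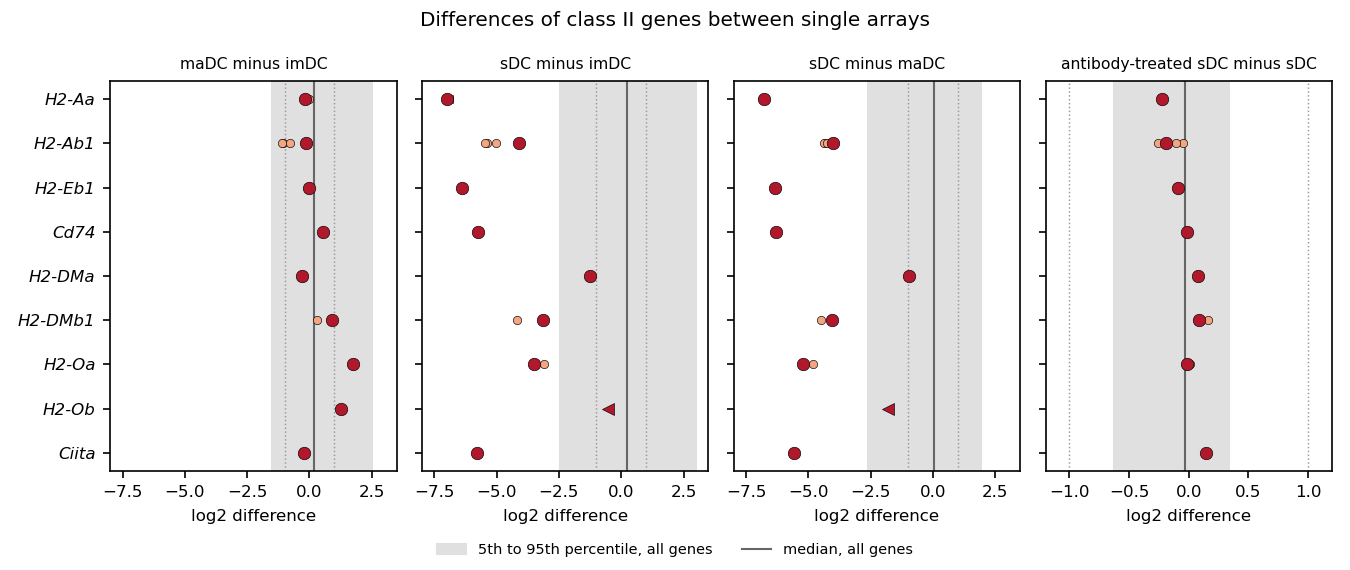
Log2 differences between single arrays for the 9 genes in 4 comparisons (x axis); large red points are the brightest probe of a gene, small points its other probes, and triangles bounds. The grey band is the 5th to 95th percentile and the line the median over all genes; the antibody panel has a narrower axis, on which all 8 genes with a value stay inside the band.

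Probes nearer the 3′ end gave higher differences over most transcripts in both comparisons with imDCs and in sDC minus maDC. H2-Ab1 and H2-DMb1 did so too, but not every member. In H2-Ab1 the sDC minus imDC difference was -5.48, -5.03 and -4.12 at probes starting at bases 183, 546 and 875, and the maDC minus imDC difference -1.10, -0.79 and -0.13. In H2-DMb1 the differences at bases 620 and 1219 were -4.19 and -3.14 for sDC minus imDC, and 0.31 and 0.92 for maDC minus imDC. H2-Aa went the other way for maDC minus imDC, with -0.03 at base 227 and -0.19 at base 454. H2-Oa went the other way for sDC minus imDC, with -3.11 at base 780 and -3.49 at base 848. These H2-Oa probes start less than 100 bases apart, so they do not enter the counts that follow. Over 4023 transcripts with probes at least 100 bases apart, the 3′ minus the 5′ difference had a median of 0.47 for sDC minus imDC and was above 0 in 76.3%. Over 3892 transcripts it was 0.24 and 66.4% for maDC minus imDC. The H2-Ab1 values of 1.36 and 0.98 were reached or passed by 12.7% and 9.51% of those transcripts.

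Between arrays of the shared slide the medians were smaller. They came to 0.16 over 3797 transcripts for sDC minus maDC, where H2-Ab1 had 0.38, and to -0.08 over 3987 transcripts for antibody-treated sDC minus sDC, where H2-Ab1 had 0.07. The share above 0 was still 65.0% for sDC minus maDC, close to the 66.4% of maDC minus imDC, and was 33.6% with the antibody. The 95th percentile was 1.60 for sDC minus maDC and 1.21 for maDC minus imDC. The part of RNA quality, labelling or slide in this was not tested. It bears on how H2-Ab1 is read in maDCs: at the pair of 5′ probes it was 2.10-fold and 2.15-fold lower than in imDCs, and at the 3′ probe 1.09-fold lower.

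**Figure D3:**
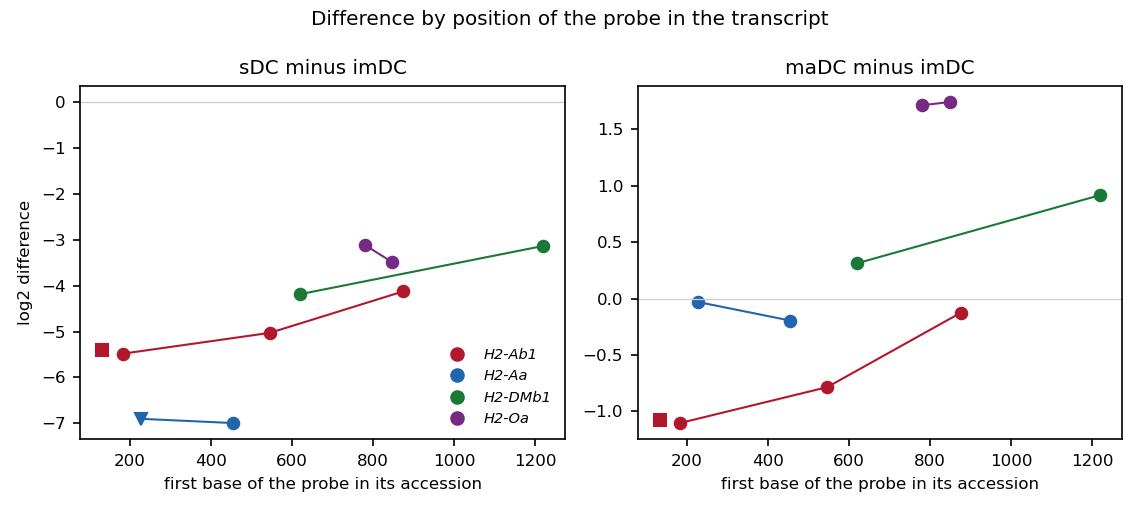
Log2 difference of sDC minus imDC and of maDC minus imDC (y axes, with different ranges) against the first base of the probe in its accession (x axis) for the 4 genes with several measured probes; lines join probes of 1 RefSeq transcript, the square is the H2-Ab1 probe designed to another cDNA, and the triangle is the H2-Aa bound. H2-Ab1 and H2-DMb1 climb towards the 3′ end in both panels.

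H2-Ea and H2-DMb2, class II genes outside the 9, were also far lower in sDCs than in maDCs and imDCs. H2-Ea, the I-E alpha chain gene, was not well above background in antibody-treated sDCs and had -5.05 in sDCs, 1.77 in maDCs and 2.08 in imDCs. Its differences were -7.13 for sDC minus imDC, -6.82 for sDC minus maDC and -0.30 for maDC minus imDC. With normexp correction the first 2 were -5.56 and -5.43, where H2-Aa lay at -6.66 and -6.37. H2-DMb2, the second DM beta gene, lay at -4.28, -3.93 and -0.35 in the same comparisons (-3.31 and -2.97 for the first 2 with normexp correction) and at 0.37 for antibody-treated sDC minus sDC. H2-DMb2 and H2-DMb1 are close copies, so their probes may share signal. H2-Eb2 was not well above background on any array, and H2-Pa and H2-Pb were not named on the array.

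The class II region also holds genes of peptide supply to class I molecules, which lay closer to 0 than the class II chain genes for sDC minus imDC. Between H2-DMb1 and H2-Ob lie the immunoproteasome genes Psmb9 and Psmb8 and the peptide transporter genes Tap1 and Tap2. In sDC minus imDC they lay at -0.07 (Psmb9), -1.11 (Tap1), -0.23 (Psmb8) and -0.70 (Tap2), while Brd2, a chromatin reader gene next to H2-Oa, lay at 0.84. In maDC minus imDC these 5 genes lay between 0.35 and 1.34. In sDC minus maDC they lay between -1.45 and -0.50, and in antibody-treated sDC minus sDC between -0.22 and 0.32. On the side of H2-Oa, the class II genes lay at -3.14 (H2-DMb1), -4.28 (H2-DMb2), -1.26 (H2-DMa) and -3.49 (H2-Oa) for sDC minus imDC, so that H2-DMa was close to Tap1. On the other side, H2-Ob gave a bound of -0.55 only, and H2-Ab1 lay at -4.12.

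**Figure D4:**
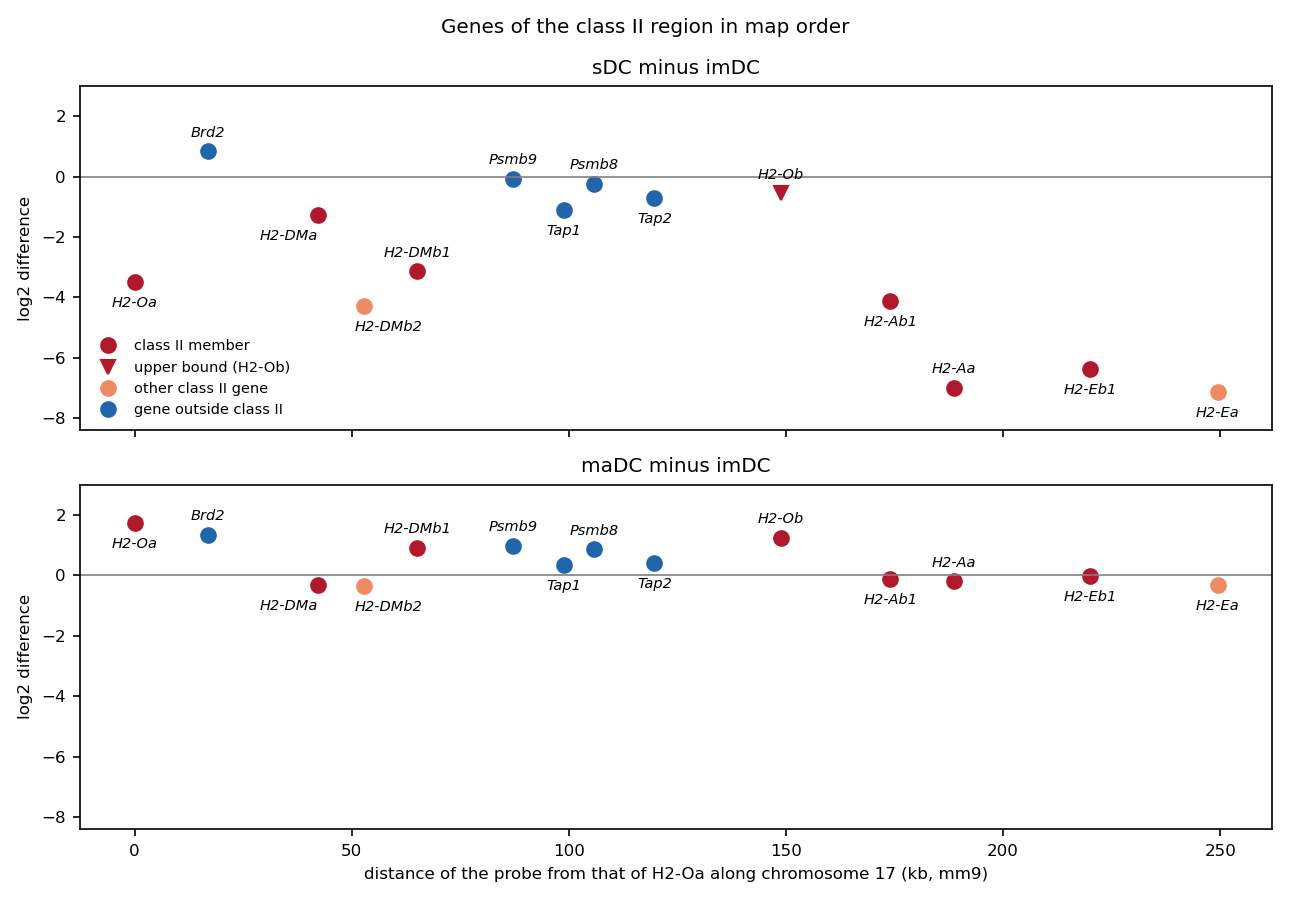
Log2 differences of sDC minus imDC (top) and maDC minus imDC (bottom) for genes of the class II region, in the order of their probes along chromosome 17, with distance from the H2-Oa probe in kb. Psmb9, Tap1, Psmb8 and Tap2 lie between -1.11 and -0.07 in the top panel, amid class II genes that reach -7.13 (H2-Ea, -5.56 with normexp correction).

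The factors seated on class II promoters lay nearer to 0 than most of the 9 genes in both comparisons of sDCs with the GM-CSF cultures, each at its brightest probe. The list held the RFX subunits Rfx5, Rfxap and Rfxank, the NF-Y subunits Nfya, Nfyb and Nfyc, and Creb1, which binds the X2 box. Of these 7, 0 were at least 2-fold higher and 2 at least 2-fold lower in sDCs than in imDCs, Rfx5 (-1.16, but -0.55 with normexp correction) and Nfyc (-1.70); the other 5 were Rfxap (0.50), Rfxank (-0.05), Nfya (0.88), Nfyb (-0.59) and Creb1 (0.33), and the median was -0.05. In sDC minus maDC 2 were higher, Nfya (1.48) and Creb1 (1.45), and 1 lower, Nfyc (-1.17), with Rfx5 at -0.19, Rfxap at 0.45, Rfxank at 0.61 and Nfyb at -0.01. Probes of these genes disagreed: another Creb1 probe lay at -1.66 for sDC minus maDC and -1.86 for sDC minus imDC, both more than 2-fold lower, so no direction is given for Creb1. Other probes of Nfya (0.35) and Rfxap (1.34) for sDC minus maDC, and of Nfya (-0.09), Rfx5 (-0.03) and Rfxap (1.72) for sDC minus imDC, also fell on the other side of 2-fold or of 0. That Rfx5 probe gave no value in the other comparisons, so its -0.03 rests on signals near background and may be a bound. In maDC minus imDC only Creb1 was past 2-fold (-1.12, but -0.08 at another probe), and Rfx5 (-0.97) joined it with quantile normalization, with the percentile over detected probes and in the authors' deposited table. The other 5 lay between -0.66 (Rfxank) and 0.04 (Rfxap). With the antibody all 7 lay between 0.02 and 0.16.

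Genes that act on Ciita lay in both directions. This list of 15 held interferon-gamma signalling genes, factors known to bind Ciita promoters, the Ciita repressor Prdm1, and the IL-10 and STAT3 genes. In maDC minus imDC 8 were at least 2-fold higher and 1 lower, with a median of 1.21; the largest were Ifng (6.87), Il10 (4.05), Prdm1 (2.66) and Irf8 (2.50), while Ciita was at -0.24. In sDC minus imDC 5 of 14 with a value were higher and 3 lower, with a median of 0.54. The largest were the interferon regulatory factor gene Irf4, not well above background in sDCs (a bound of -6.54), Socs1, an inhibitor of cytokine signalling (-3.67), Il10 (2.49) and the kinase gene Jak2 (-2.45). In sDC minus maDC 2 were higher and 8 lower, with a median of -1.14. Irf4 (a bound of -7.75), Ifng (a bound of -6.70), Socs1 (-4.29) and Jak2 (-3.25) led. With normexp correction Ifng and Il10 lay at 5.10 and 2.53 for maDC minus imDC, Il10 at 1.42 and the Irf4 bound at -4.79 for sDC minus imDC, and the Irf4 and Ifng bounds at -5.90 and -4.75 for sDC minus maDC. With the antibody none of 13 was past 2-fold, and Stat3 lay at -0.26, Prdm1 at -0.25 and Il10 at -0.25.

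Genes of peptide processing and class II turnover were in part higher and in part lower in sDCs. This list of 10 held endosomal proteases, their inhibitor Cst3, the reductase gene Ifi30, the ubiquitin ligase genes Marchf1 and Marchf8, which send class II to degradation, and Cd83, whose product counters that. In sDC minus imDC 6 were at least 2-fold higher and 2 lower, with a median of 1.86. The asparagine endopeptidase gene Lgmn lay at 3.32, the cathepsin gene Ctsl at 3.22, Marchf1 at 2.40 and Cd83 at -2.37. In sDC minus maDC 2 were higher and 2 lower, with a median of 0.39: Cd83 lay at -4.12, Lgmn at 1.92, Marchf1 at 1.49 and Cst3 at -1.33. The cathepsin gene Ctsb lay at 0.36 there at its brightest probe, but at 3.59 at its other probe. In maDC minus imDC 6 were higher and 0 lower, with a median of 1.37, led by Ctsl (2.32), Cd83 (1.75), Ctsd (1.51) and Ctsb (1.41, but 0.08 at its other probe). With the antibody 0 were past 2-fold.

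Class I presentation genes lay in both directions in sDCs against imDCs, and 7 of 11 were at least 2-fold lower in sDCs than in maDCs. Of 12 listed genes 11 were named on the array. In sDC minus imDC 3 were at least 2-fold higher, H2-D1 (1.95), H2-K1 (1.73) and B2m (1.36), and 2 lower, the chaperone gene Calr (-2.13) and Tap1, with a median of -0.07. In maDC minus imDC 5 were higher and 0 lower, with a median of 0.98, led by Tapbp (2.05), H2-K1 (1.94), B2m (1.62) and H2-D1 (1.58). In sDC minus maDC 0 were higher and 7 lower, with a median of -1.07, but 3 lower with quantile normalization; Calr lay at -1.68, Tap1 at -1.45, Tap2 at -1.10 and Psmb8 at -1.09. H2-K1 and H2-D1 have near-identical relatives, so their probes may share signal. With the antibody 0 were past 2-fold.

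**Figure D5:**
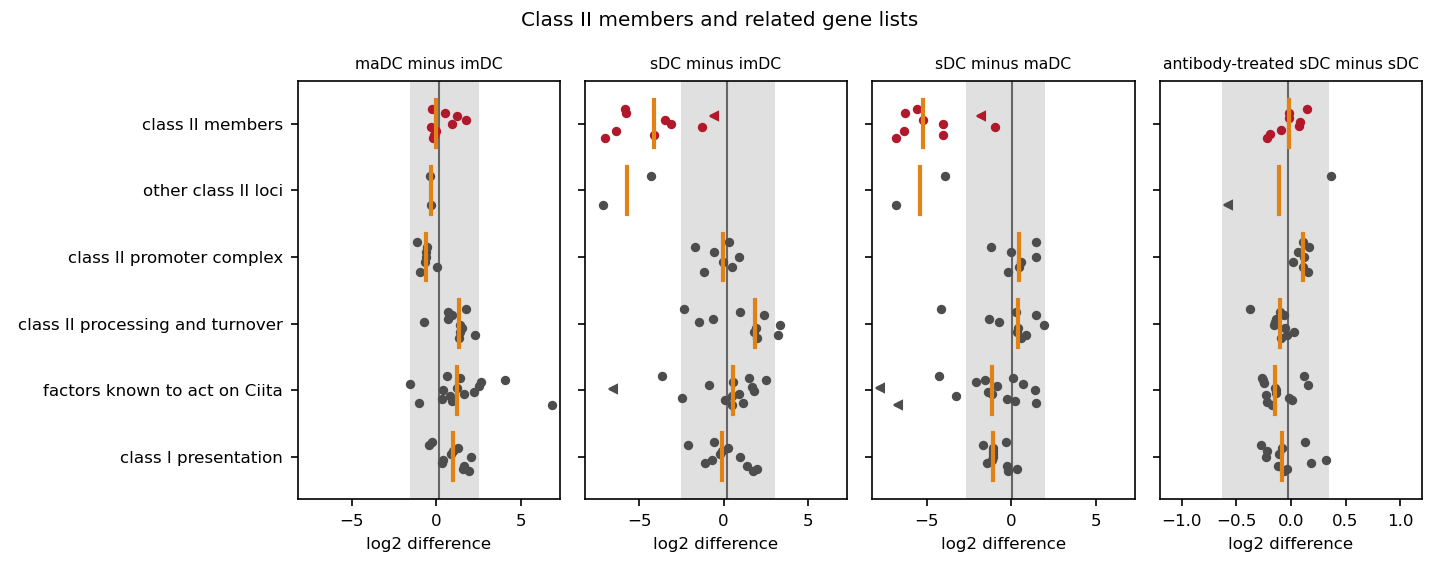
Log2 differences of the 9 members (red) and of 5 related gene lists (grey) in 4 comparisons between single arrays; each point is a gene at its brightest probe, triangles are bounds, orange bars are list medians with bounds at their bound, and the grey band and line are the 5th to 95th percentile and the median over all genes. For sDC minus imDC the members' bar stands at -4.12 and that of the class II promoter complex at -0.05.

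Most dendritic cell markers were lower on the sDC arrays, where class II was low, than on the maDC and imDC arrays. Of 12 dendritic cell markers, 8 were well above background in antibody-treated sDCs, 8 in sDCs, 10 in maDCs and 12 in imDCs. Their summed signal, in multiples of the array's 75th percentile, was 1.86, 2.11, 392 and 128 on those arrays. Ccl17, at 8.15 in maDCs and 6.45 in imDCs, made up most of the sums on those arrays. Such sums follow their brightest genes and do not measure cell content. Irf4, Ccl22, Cd209a and Clec9a were not well above background on either sDC array, and Cd209a and Clec9a were not so in maDCs either. Itgax, the gene of CD11c, had -1.47 in antibody-treated sDCs, -1.60 in sDCs, 3.70 in maDCs and 2.93 in imDCs. Xcr1 was not lower in sDCs than in imDCs: it lay at 0.95 for sDC minus imDC and at -0.16 for sDC minus maDC. In sDCs, 10 of the 12 (8 with normexp correction) were at least 2-fold below imDCs (median -4.30 or lower) and 9 of the 10 with a value below maDCs (median -4.97). Irf4 also stands in the list of genes acting on Ciita.

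Most macrophage and stromal markers were higher on the sDC arrays than on the maDC and imDC arrays. Of 12 macrophage and monocyte markers all were well above background on both sDC arrays and 11 in maDCs and in imDCs, with summed signals of 721, 767, 461 and 230 from antibody-treated sDCs to imDCs. Lyz2 made up most of each of these sums. All 12 were at least 2-fold higher in sDCs than in imDCs (median 3.37), but 11 with quantile normalization or in the authors' deposited table. In sDC minus maDC 10 were at least 2-fold higher and 0 lower, with a median of 2.62. In maDC minus imDC class II chain genes were nearly level at their brightest probes, while H2-Ab1 lay between -1.10 and -0.79 at its other probes. Of 11 macrophage and monocyte markers with a value there, 7 were higher and 1 lower. The median there was 1.18, and 4 were higher with quantile normalization. Of 12 stromal markers all were well above background on both sDC arrays, 10 in maDCs and 9 in imDCs, with median levels of 2.42, 3.05, -3.26 and -4.35. In sDC minus imDC 11 were at least 2-fold higher and 1 lower, with a median of 7.20. In sDC minus maDC 10 were higher and 1 lower, and in maDC minus imDC 6 of 11 with a value were higher and 0 lower. The summed stromal signal was 103, 187, 103 and 108, in which Thy1 made up most of the maDC and imDC sums.

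Markers of other cell types were looked for as well. Of 9 B cell markers 6 were well above background on each sDC array and in maDCs, and 7 in imDCs, with summed signals of 2.26, 2.13, 4.84 and 1.26 from antibody-treated sDCs to imDCs; Pax5 and Blk were not well above background anywhere. Of 6 plasmacytoid dendritic cell markers 5 were well above background on each of those 3 arrays and 6 in imDCs, with sums of 38.8, 36.8, 59.1 and 13.3, and Siglech was so in imDCs only. Cd79b made up most of each B cell sum, and Bst2 most of each plasmacytoid dendritic cell sum. Neutrophil markers (7 named on the array, all well above background on each) summed to 236, 129, 84.0 and 1145, T cell markers (6) to 0.64, 0.61, 2.21 and 0.89, and mast cell and basophil markers (7) to 0.31, 0.27, 88.9 and 9.16. The part of the cell makeup in the class II differences was not tested.

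The genes whose pattern over the 4 arrays was most like that of a member were picked by the smallest root mean square distance of log2 levels centred over the arrays, among 14679 genes well above background on at least 2 arrays. For H2-Aa they were H2-Ea (0.18), Ccn3 (0.19), Cish (0.22), Fezf2 (0.23) and Aoc1 (0.31). For Cd74 they were Serpina3f (0.096), Hbb-bt (0.10), Il4i1 (0.16), Asb2 (0.19) and Hgfac (0.22). For Ciita they were Susd4 (0.068), Alpk2 (0.10), Ffar4 (0.19), Myb (0.20) and Cd244a (0.20). Fezf2, Aoc1, Serpina3f, Hbb-bt, Susd4, Alpk2 and Ffar4 were not well above background on the sDC arrays, so part of their likeness rests on signals near background. Among the members, H2-Eb1 was nearest to H2-Aa (0.31) and to Cd74 (0.27), and H2-DMa was farthest from both (2.97 and 2.50). The distances rest on 4 arrays.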

How the data were processed

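The authors deposited 1 scanner table per array; per the file headers, Feature Extraction 10.5.1.1 of Agilent made its processed intensity, background-subtracted and detrended, with probe positions in mm9. Version 9.1 stands in the submitters' processing notes. A value table on a log2 scale was deposited too, whose columns correlated with log2 intensity at 0.997 to 1.00 over probes and had a median of 6.30 each; the sources used here do not name its normalization, and it served as an alternative.

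Controls and outlier-flagged spots (76 to 148 an array) were dropped, log2 of the processed intensity minus the array's 75th percentile was taken, and spots of a probe were averaged. Probes were named through RefSeq (25084 by accession, 6330 by symbol, 1640 by synonym, 16 members by the design's own name, 8104 unnamed), and each gene was read at its brightest probe. Where 1 side was not well above background, the dim side was set at its own signal or at the array's lowest signal well above background, whichever was more, and the difference written as a bound. Genes were counted at 2-fold. The members, gene lists and tests were chosen with earlier results of these data known. All members were named with every probe, all genes of a related list of 8 or fewer, up to 4 with the largest difference of longer ones (markers of cell types mostly as counts and sums), and the 5 genes most like a member; Itgax, Brd2 and the genes of the class II region were named for their place.

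Alternatives were normexp background correction with an offset of 50 (limma 3.58.1, R 4.3.3), quantile normalization, the percentile over probes detected on all 4 arrays, the deposited value table, no filter on dim probes, other rules for genes with several probes, and 1.5-fold. Python 3.11.15, numpy 2.4.6 and pandas 2.3.3 were used. The calculation was tested on simulated data.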

Additional observations from a re-analysis of the deposited data

How the results depend on the processing

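No paired analysis was possible because each population has 1 array, and for the same reason slide could not be fitted as a block. Of 244 member values under alternatives, 225 stayed within the SD between probes of a gene and 19 moved by more. Of these values, 0 turned from a 2-fold difference to the opposite sign. Part of the 225 could not move, so the count overstates stability. Dropping the filter on dim probes could change only H2-Ob. The rules for genes with several probes could not change H2-Eb1, H2-DMa, Cd74 or Ciita. The count of members at least 2-fold higher in maDCs than in imDCs, 2, was 1 with normexp correction, 1 with quantile normalization and 1 in the authors' deposited table, where H2-Ob dropped below 2-fold. The members' median for sDC minus imDC was -5.21 with the median over the probes of a gene, against -4.12, because H2-Ab1 moved to the value of its other probes. For sDC minus maDC it was -4.20 with normexp correction and -5.46 in the deposited table, against -5.23. The middle gene was Ciita with normexp correction, and H2-Oa in the main setting and the deposited table. Why the values of these genes moved was not tested. With normexp correction Ciita itself lay at -4.49 for sDC minus imDC and -4.20 for sDC minus maDC, against -5.81 and -5.57. Over all genes, 66.7% of those past 2-fold in maDC minus imDC were higher in maDCs, but 56.4% in the deposited table and 78.2% with no filter on dim probes. Signal over background limits H2-Ob, the 5′ probe of H2-Aa and Ciita on the sDC arrays.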
